A study of Mus musculus with 10 samples.

Results

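The mRNAs that encode 4E-T and the proteins it works with were examined in RNA that was precipitated from embryonic mouse cortex with an antibody against 4E-T. The 8 genes were taken by symbol: Eif4enif1, which encodes 4E-T, the cap-binding genes Eif4e, Eif4e2 and Eif4e3, and the repression genes Ddx6, Lsm14a, Lsm14b and Patl1. Each had 1 probe set annotated with its symbol alone, so all 8 were measured among the 22180 genes tested, and no choice between probe sets was needed. The question was whether transcripts of the 4E-T complex themselves come down with 4E-T more than with a control antibody.

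The samples were freshly dissected cortices of CD1 embryos at embryonic days 12 to 13, with no further genotype or treatment given. RNA of 3 groups was hybridised to Affymetrix Mouse Gene 2.0 ST arrays: 3 arrays of RNA from 4E-T precipitates (numbered 1, 2 and 3), 3 of RNA from control IgG precipitates (2, 3 and 4) and 4 of total input RNA (1 to 4). The design text counts 3 biological replicates per group although 4 inputs carry labels, and none was left out. How many embryos went into a sample is not stated.

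The protein eIF4E binds the cap at the start of an mRNA and, through the scaffold eIF4G, starts translation. 4E-T binds eIF4E through the same kind of motif as eIF4G does, so that it displaces the scaffold and holds the mRNA silent, often in cytoplasmic granules called P-bodies. In those granules 4E-T joins the helicase DDX6, the scaffold proteins LSM14A and LSM14B, and PATL1, which links repressed mRNAs to decapping. eIF4E2, also called 4EHP, binds the cap without recruiting eIF4G and serves repression, and eIF4E3 is a further relative with an unusual way of holding the cap. In neural precursors, 4E-T and eIF4E are known for keeping neurogenic mRNAs in store.

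All values are log2 values after robust multi-array averaging (RMA), which the authors computed. The arrays 4E-T 1 and input 1 had medians over all probe sets of 3.52 and 3.54, against 4.33 to 4.54 on the other 8 arrays, and they are called the lower-scale arrays. On 7.52% of the probe sets their values were identical, and the highest such share in another pair of arrays was 0.138%. No IgG array is among them, so a plain comparison of 4E-T with IgG carries their shift. Differences below therefore come from limma with a term for group and a term for these 2 arrays, fitted to all 10 arrays and 22180 genes, with calls made at an adjusted p (Benjamini-Hochberg) under 0.05. Errors of differences are standard errors of that fit, and n is 3 for 4E-T, 3 for IgG and 4 for input. In that fit the lower-scale arrays contribute only through the difference between them. These values do not measure how much RNA either antibody brought down.

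Markers of the labelled tissue were present. All 11 measured cortical precursor and neuron markers lay above the array median on every input array, with mean input values from 6.81 to 10.82. So did 4 of 5 ventral forebrain, 3 of 3 erythroid, 3 of 5 endothelial, 4 of 5 microglia and macrophage, and 2 of 5 meningeal and mesenchymal markers. The highest erythroid mean in input was 10.80. Single markers of other cell types differed between the precipitates. Called higher in 4E-T than in IgG were 2 of 5 ventral forebrain, 1 of 3 erythroid and 1 of 5 endothelial markers, with 0 lower in each (0 lower also at an unadjusted limma p under 0.05), beside 5 higher and 1 lower of the 11 cortical ones. Over all genes 7.57% were called higher and 2.92% lower. The called markers were Gad2 and Gsx2, Slc4a1, Kdr, and the cortical genes Emx1, Emx2, Sox2, Nes and Neurog2 (higher) and Dcx (lower), named after their values were seen. With group alone Kdr and Dcx kept their calls (adjusted p = 0.0305 and 0.0383) and the other 8 lost theirs (0.0728 to 0.563). Of 5 microglia and macrophage and 5 meningeal and mesenchymal markers limma called 0 in either direction (1 higher and 1 lower, and 0 higher and 1 lower, at an unadjusted p under 0.05). The summed level of the ventral forebrain markers was 8.40 to 8.97 in 4E-T, 8.11 to 8.69 in IgG and 7.64 to 8.66 in input on the log2 scale. That of the erythroid markers was 10.54 to 11.01, 10.17 to 10.68 and 10.84 to 11.41 in the same order, and that of the endothelial markers 7.03 to 7.93, 7.02 to 7.30 and 6.98 to 7.88. The cortical markers summed to 13.01 to 13.35, 13.00 to 13.15 and 12.32 to 13.02, the microglia and macrophage markers to 6.82 to 8.29, 7.96 to 8.21 and 6.73 to 7.94, and the meningeal and mesenchymal markers to 5.71 to 7.11, 6.97 to 7.66 and 5.67 to 7.49. Their part in the results below was not tested. Marker differences between the precipitates compare precipitated RNA and do not measure numbers of cells. For the levels in input, which is bulk tissue, fewer cells of a type and less RNA per cell cannot be told apart.

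**Figure D1:**
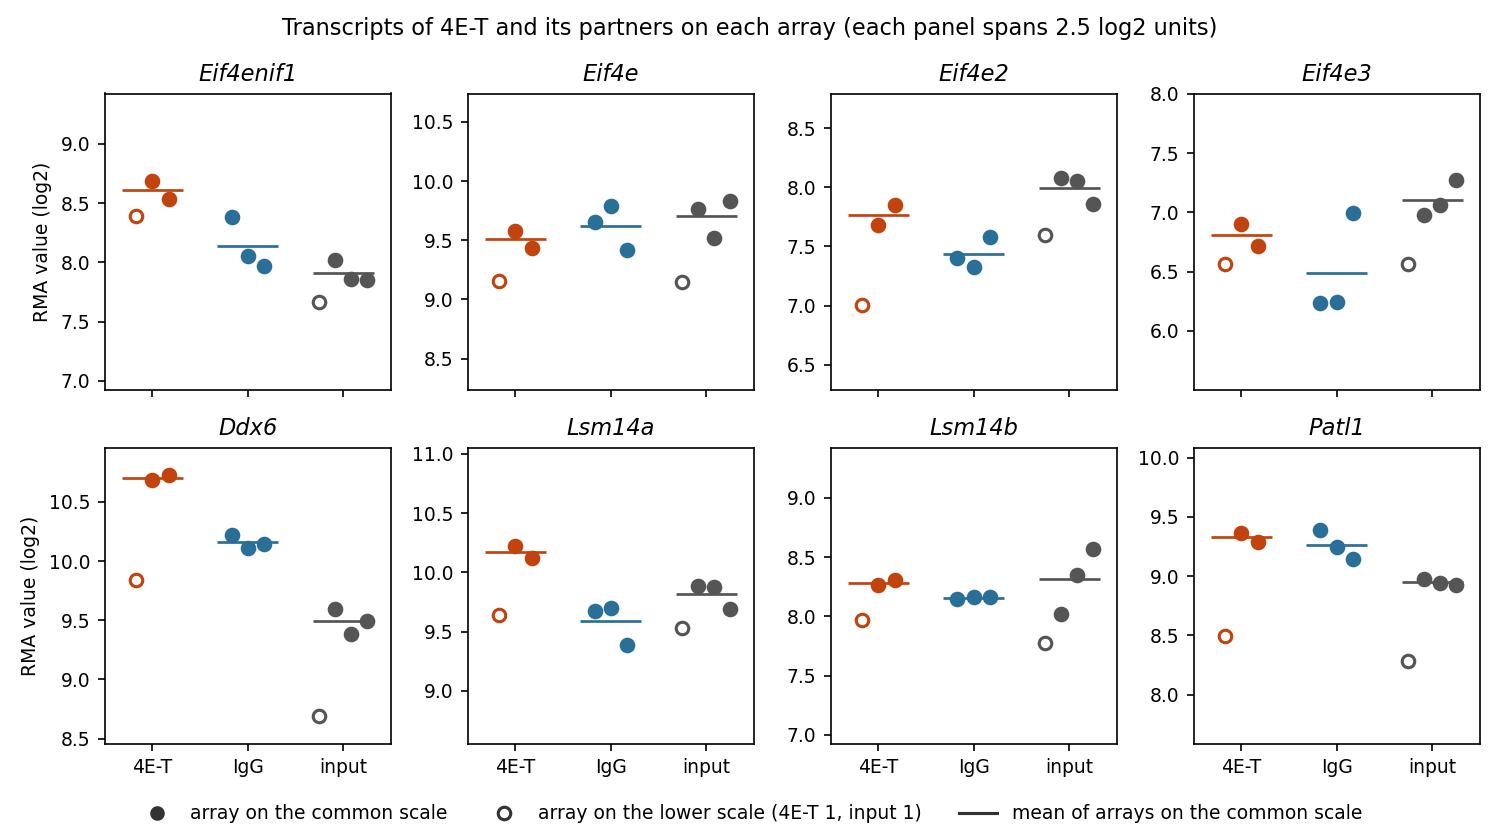
RMA values (log2) of the 8 genes on each array, with 4E-T precipitates left of IgG precipitates and input; filled points are arrays on the common scale, open points the lower-scale arrays 4E-T 1 and input 1, and lines the means of the filled points. Ddx6 on the common scale sits at 10.69 and 10.72 with 4E-T, at 10.11 to 10.22 with IgG and at 9.39 to 9.60 in input, while Eif4e overlaps between all groups.

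Of the 8 genes, Ddx6 and Lsm14a were higher with 4E-T than with IgG, and none was lower (0 lower also at an unadjusted limma p under 0.05, with 3 higher). Over all genes 7.57% were called higher and 2.92% lower in this comparison, so 2 of 8 is to be read against that background. The median difference of the 8 was 0.32, against 0.03 for all genes, and 7 of the 8 lay above 0, as did 53.7% of all genes. All 8 are among the brighter genes, with a mean above the median of the gene means. In a fit of the brighter genes alone their median difference was 0.14, a background nearer to the 8. There 2164 genes were called higher and 732 lower, against 1678 and 648 among all genes. As that fit holds fewer genes, the shares called higher and lower in it were larger than 7.57% and 2.92%. Of the 8, 3 were called higher in that fit, to be read against those larger shares. Against input, 4E-T held more Eif4enif1 and Ddx6 RNA (background 10.4% higher, 8.86% lower), and IgG held more Ddx6 and less Eif4e2 RNA (background 6.14% higher, 10.5% lower). Median differences of the 8 against input were 0.16 for 4E-T and -0.10 for IgG, with 0.04 and 0.03 for all genes. The comparisons share arrays, so their values are given side by side and not as independent results.

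**Figure D2:**
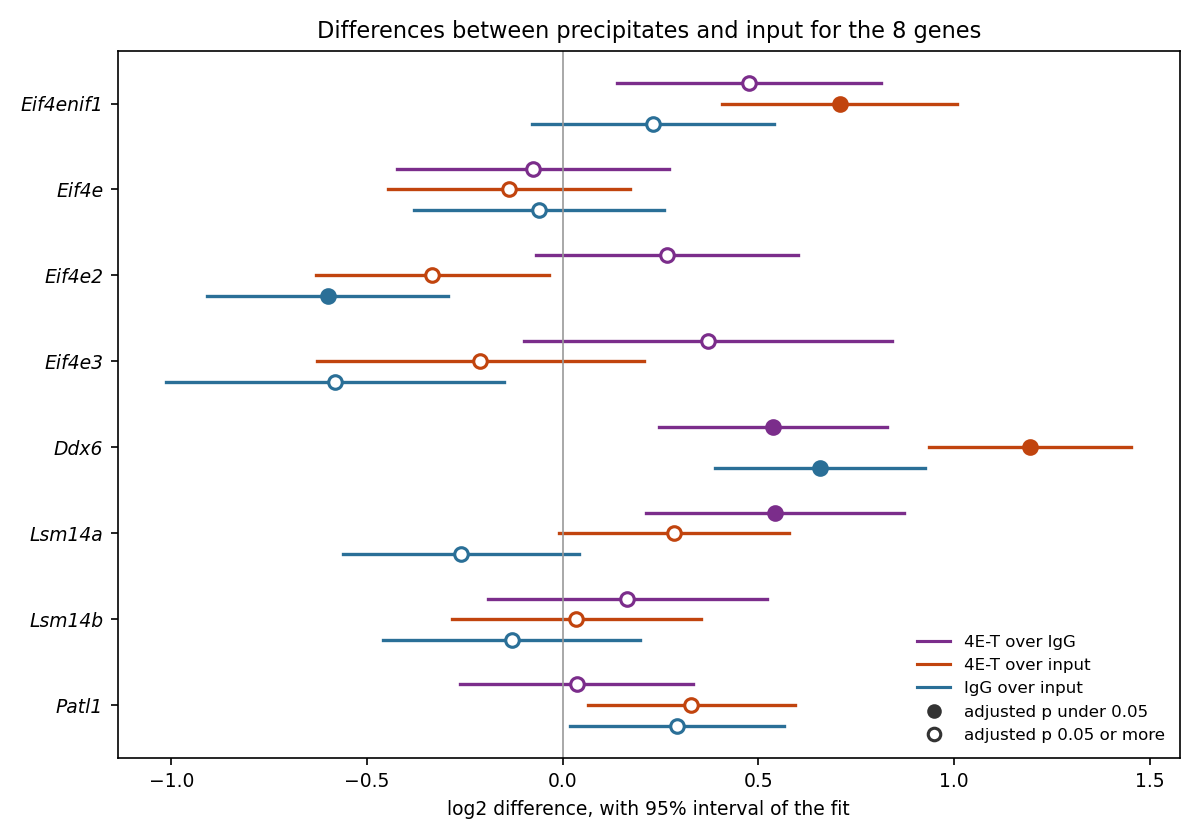
Log2 differences of the 8 genes between the precipitates and of each precipitate over input, with 95% intervals of the fit; filled points have an adjusted p under 0.05. Ddx6 is filled in all 3 comparisons, at 0.54, 1.20 and 0.66, and the intervals of Eif4e span 0 in all 3.

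Without the term for the lower-scale arrays, and with no rescaling of the arrays, these calls were fewer on all 10 arrays. With group alone limma called 0 of the 8 in 4E-T over IgG (0 also at an unadjusted p under 0.05; 1.35% of all genes called), Ddx6 alone in 4E-T over input (6.14% of all genes) and 0 in IgG over input (1 at an unadjusted p under 0.05; 5.44% of all genes). Centring each array on its median, also without the term, gave 3 of the 8 higher in 4E-T over IgG. Of all 22180 genes 2834 were then higher and 220 lower, with a median difference of 0.25. In IgG over input centring gave 1 of the 8 higher and 2 lower, beside 338 and 2454 of all genes. In 4E-T over input it gave 2 higher and 0 lower, beside 1722 and 752. Among all genes, 72.1% of the calls in 4E-T over IgG were on the higher side, against 52.5% with group alone and 92.8% with each array centred on its median. The shares in 4E-T over input were 54.0%, 41.7% and 69.6% in the same order of fits. In IgG over input they were 36.9%, 26.7% and 12.1%.

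Eif4enif1, the mRNA of the precipitated protein, was higher with 4E-T than in input and did not pass the test against IgG. Its values were 8.39, 8.69 and 8.53 on 4E-T 1, 2 and 3, then 8.39, 8.06 and 7.97 on IgG 2, 3 and 4, and 7.66, 8.02, 7.86 and 7.85 on inputs 1 to 4. Every 4E-T array lay above every IgG and every input array, 4E-T 1 included although it is on the lower scale and only just exceeded IgG 2. The difference of 4E-T over input was 0.71 ± 0.14 (1.63-fold, adjusted p = 0.00337), with 0.73, 0.67 and 0.67 between the arrays numbered 1, 2 and 3. With group alone it was 0.69 and lost its call (adjusted p = 0.0669, the highest over all alternatives, from 7.82e-04). IgG over input was 0.23 ± 0.14 (adjusted p = 0.330).

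Against IgG, Eif4enif1 differed by 0.48 ± 0.15 (1.39-fold, 95% interval 1.10 to 1.76, adjusted p = 0.0737). Among all genes 12.7% had a higher difference. IgG 2 was the highest of the IgG arrays, and without it the difference was 0.60 and was called (adjusted p = 0.0275). It was also called with array centring (0.84, adjusted p = 0.0335), with a variance trend and robust fit (0.0397), with array weights (0.0453) and among the brighter genes alone (0.0337). In the other 14 alternatives it was not called, and the range over all was 0.0275 to 0.484.

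The cap-binding genes gave no call in 4E-T over IgG. Eif4e, the mRNA of the protein that 4E-T holds, had 9.15, 9.58 and 9.44 on 4E-T 1 to 3, then 9.65, 9.79 and 9.41 on IgG 2 to 4, and 9.15, 9.76, 9.52 and 9.83 on inputs 1 to 4. The 3 groups overlapped. Differences were -0.08 ± 0.16 for 4E-T over IgG (95% interval -0.42 to 0.27), -0.14 ± 0.14 in 4E-T over input and -0.06 ± 0.15 in IgG over input, with adjusted p of 0.841, 0.624 and 0.843. The first interval corresponds to 0.746-fold to 1.21-fold.

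Eif4e2, the mRNA of 4EHP, was lower in the IgG precipitate than in input. It had 7.01, 7.68 and 7.85 on 4E-T 1 to 3, then 7.40, 7.33 and 7.58 on IgG 2 to 4, and 7.60, 8.07, 8.05 and 7.86 on inputs 1 to 4. Every IgG array lay below every input array, and the 4E-T arrays on the common scale lay between these groups. IgG over input was -0.60 ± 0.14 (0.660-fold, adjusted p = 0.0121), with -0.67, -0.73 and -0.27 between the arrays numbered 2, 3 and 4. With group alone it was -0.46 and not called (adjusted p = 0.355, against 0.00486 at the low end of the alternatives). 4E-T over input was -0.33 ± 0.14 (adjusted p = 0.123) and 4E-T over IgG 0.27 ± 0.15 (adjusted p = 0.338), so of the 3 comparisons only IgG over input passed the test.

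Eif4e3, the remaining cap-binding relative, followed the same order of levels with more spread. It had 6.57, 6.90 and 6.71 on 4E-T 1 to 3, then 6.23, 6.24 and 6.997 on IgG 2 to 4, and 6.57, 6.98, 7.07 and 7.28 on inputs 1 to 4. IgG 4 stood well above the other IgG arrays, and the lower-scale arrays 4E-T 1 and input 1 held the identical value, the only such tie among the 8 genes. IgG over input was -0.58 ± 0.20 (adjusted p = 0.0671), 4E-T over input -0.21 ± 0.19 (0.560) and 4E-T over IgG 0.37 ± 0.22 (0.343). Without IgG 4 the difference of IgG over input was -0.84 and called (adjusted p = 0.00444, range over all alternatives 0.00444 to 0.354), and that of 4E-T over IgG was 0.62 and called (0.0391, range 0.0391 to 0.710). With the replicate number as a block IgG over input was -0.60 and called (0.0173). Array centring, array weights and the brighter genes alone also called it. In all it was called in 4 of 9 settings and in 1 of 10 fits without 1 array.

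**Figure D3:**
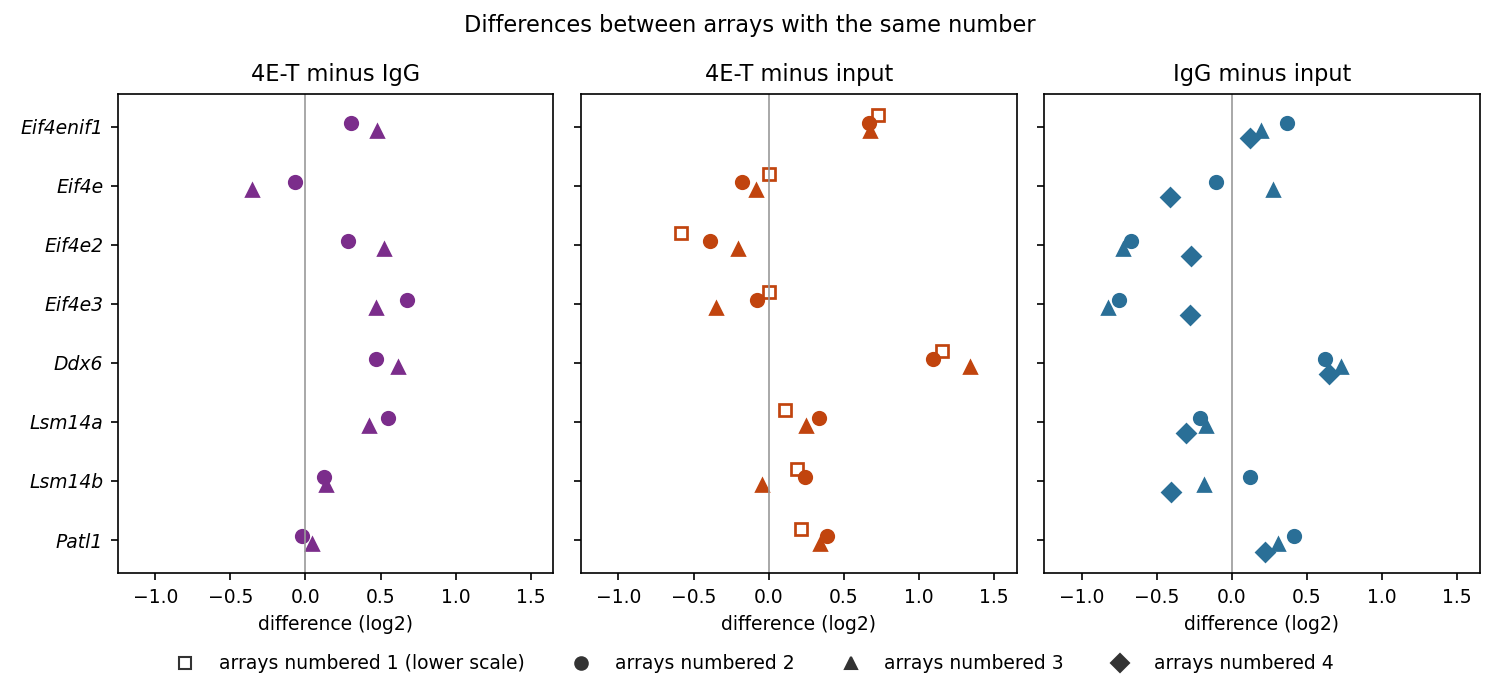
Differences (log2) between arrays that carry the same number in the labels, for 4E-T minus IgG (numbers 2 and 3), 4E-T minus input (1, 2 and 3) and IgG minus input (2, 3 and 4); the open squares are the lower-scale arrays. Ddx6 lies between 1.09 and 1.34 in 4E-T minus input and between 0.62 and 0.72 in IgG minus input, and Eif4enif1 between 0.67 and 0.73 in 4E-T minus input.

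Among the 4 repression partners, Ddx6 differed most from input in both precipitates. This gene encodes the DEAD-box helicase that bridges 4E-T to the deadenylase and decapping machinery. It had 9.84, 10.69 and 10.72 on 4E-T 1 to 3, then 10.22, 10.11 and 10.14 on IgG 2 to 4, and 8.69, 9.60, 9.39 and 9.49 on inputs 1 to 4. On the common scale the groups were ordered 4E-T, IgG, input with no overlap, and 4E-T 1, on the lower scale, lay above every input but below the IgG arrays. 4E-T over input was 1.20 ± 0.12 (2.29-fold, 95% interval 1.91 to 2.74, adjusted p = 8.90e-05), and 1.08% of all genes had a higher difference. It was called in every alternative, with differences from 1.13 to 1.32 and adjusted p from 3.86e-06 to 0.0307.

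The IgG precipitate also held more Ddx6 RNA than input, by 0.66 ± 0.12 (1.58-fold, adjusted p = 0.00316), and this call was lost with group alone (0.86, adjusted p = 0.101, the highest over the alternatives, from 2.07e-04). What 4E-T held beyond IgG was 0.54 ± 0.13 (1.45-fold, 95% interval 1.19 to 1.78, adjusted p = 0.0247). The 4E-T arrays numbered 2 and 3 exceeded their IgG counterparts by 0.47 and 0.61. The call was lost with group alone (0.26, adjusted p = 0.710) and with quantile normalization of all arrays (0.44, 0.149), and without 4E-T 2, 4E-T 3 or IgG 3 (0.106, 0.121 and 0.0636). Over all alternatives the adjusted p ran from 0.00329 to 0.710 and the difference from 0.26 to 0.70.

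Lsm14a, which encodes a P-body scaffold that binds DDX6 and 4E-T, was higher with 4E-T than with IgG without differing detectably from input in either precipitate. It had 9.64, 10.22 and 10.13 on 4E-T 1 to 3, then 9.67, 9.70 and 9.39 on IgG 2 to 4, and 9.53, 9.88, 9.87 and 9.69 on inputs 1 to 4. On the common scale both 4E-T arrays lay above every IgG and input array, and IgG and input overlapped. 4E-T over IgG was 0.54 ± 0.15 (1.46-fold, 95% interval 1.16 to 1.83, adjusted p = 0.0399), with 0.55 and 0.43 between the arrays numbered 2 and 3. 4E-T over input was 0.28 ± 0.13 (adjusted p = 0.186) and IgG over input -0.26 ± 0.14 (0.256). The separation of 4E-T from IgG on the common scale rests on 2 and 3 arrays. Eif4enif1, Eif4e2 and Lsm14b, none of them called in this comparison, showed it too. Its share among all genes was not counted.

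The call of Lsm14a was close to the threshold. It was lost with group alone (0.41, adjusted p = 0.507), with the replicate number as a block (0.47, 0.0586), and without input 2, input 3, 4E-T 2, 4E-T 3, IgG 3 or IgG 4 (0.0522 to 0.192). The difference stayed between 0.41 and 0.85 over all alternatives, with adjusted p from 0.00989 to 0.507.

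Its paralogue Lsm14b, best known in mouse from oocytes, gave no call. It had 7.97, 8.26 and 8.30 on 4E-T 1 to 3, then 8.14, 8.17 and 8.16 on IgG 2 to 4, and 7.78, 8.02, 8.35 and 8.57 on inputs 1 to 4. The IgG arrays were nearly equal, while the inputs spread widely even on the common scale. Differences were 0.17 ± 0.16 for 4E-T over IgG (adjusted p = 0.616), 0.04 ± 0.15 in 4E-T over input (0.926) and -0.13 ± 0.15 in IgG over input (0.644). The difference between the paralogues in 4E-T over IgG was not tested, and their 95% intervals, 0.21 to 0.87 for Lsm14a and -0.19 to 0.52 for Lsm14b, overlap.

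Patl1, which encodes the link between repressed mRNA and decapping, lay above input in both precipitates by similar amounts and gave no call. It had 8.50, 9.37 and 9.29 on 4E-T 1 to 3, then 9.39, 9.25 and 9.15 on IgG 2 to 4, and 8.28, 8.98, 8.95 and 8.93 on inputs 1 to 4. On the common scale every precipitate lay above every input, and 4E-T and IgG overlapped. The differences were 0.33 ± 0.12 in 4E-T over input (adjusted p = 0.0843) and 0.29 ± 0.13 in IgG over input (0.148), with 0.04 ± 0.14 for 4E-T over IgG (0.916). The first was called in 3 alternatives, with a variance trend and robust fit, with array weights and among the brighter genes (0.0292, 0.0312 and 0.0334, range over all alternatives 0.0292 to 0.886).

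**Figure D4:**
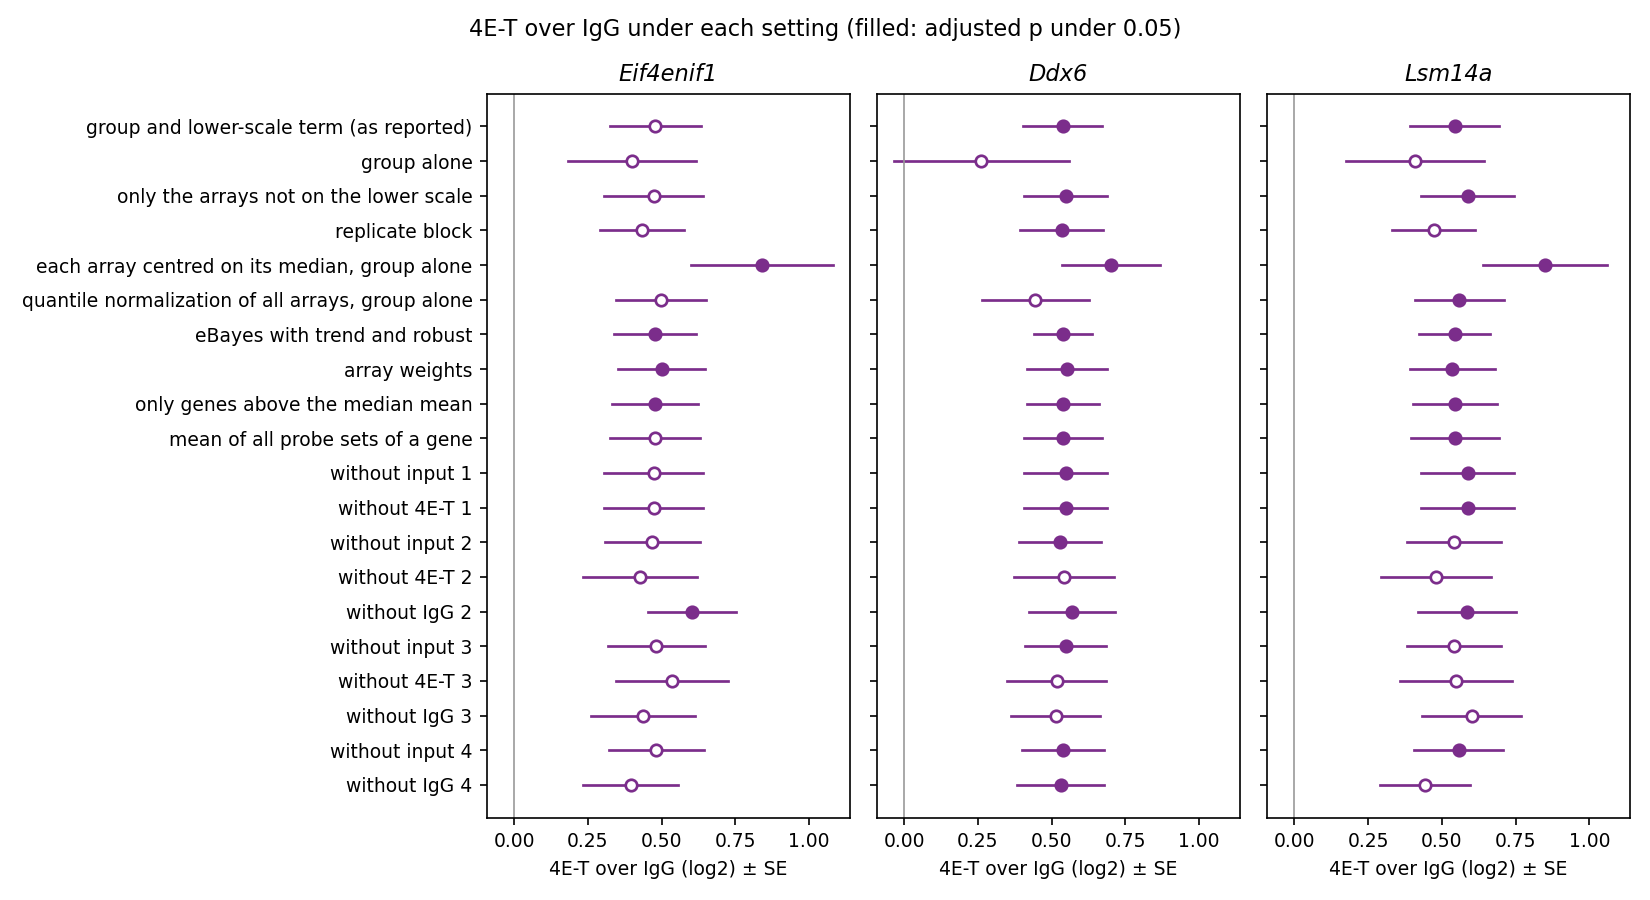
Log2 difference of 4E-T over IgG (± SE) for Eif4enif1, Ddx6 and Lsm14a in the reported fit, listed first, and in each alternative; filled points have an adjusted p under 0.05. All 3 genes stay above 0 throughout. Eif4enif1 is open in the reported fit, with group alone and in most alternatives, and Ddx6 and Lsm14a are open with group alone and in several fits without 1 array.

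Genes of the same pathways, outside the 8, were followed in 5 lists, whose counts in 4E-T over IgG stand beside 7.57% of all genes called higher and 2.92% called lower. Of 12 measured genes of the cap complex and its regulators, 1 was higher and 3 were lower with 4E-T than with IgG (median 0.05). Eif4h, which encodes a cofactor of the helicase eIF4A, was higher by 0.65 ± 0.15 (adjusted p = 0.0159). Eif4a2 and Eif4a1, which encode that helicase, were lower, with differences of -1.16 ± 0.18 (0.00232) and -1.11 ± 0.13 (5.10e-04), and so was the scaffold gene Eif4g3, with -0.57 ± 0.14 (0.0219). Against input, Eif4g3 had -0.15 with 4E-T (adjusted p = 0.498) and 0.42 with IgG (0.0418). Eif4a1 had -0.56 with 4E-T (0.00549) and 0.55 with IgG (0.00843), and Eif4a2 -0.99 (0.00107) and 0.17 (0.573). Of these calls against input only that of Eif4a2 stayed with group alone (0.0230). In 4E-T over IgG, Eif4a1 and Eif4a2 were called in every alternative run, but their size depended on the probe sets used. With the mean of all probe sets of a gene the differences were -0.68 for Eif4a1 and -1.71 for Eif4a2.

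Of 21 measured P-body, decapping and silencing factors 2 were higher and 0 lower (5 and 1 at an unadjusted limma p under 0.05; median 0.15), a count close to the background. These were Dcp1a, which encodes a decapping activator and differed by 1.02 ± 0.17 (adjusted p = 0.00371), and Edc3, an enhancer of decapping that binds DDX6, at 0.70 ± 0.15 (0.0115). The values of Dcp1a were 8.15, 8.69 and 8.81 on 4E-T 1 to 3, then 7.78, 7.86 and 7.36 on IgG 2 to 4, and 7.75, 8.01, 7.90 and 8.02 on inputs 1 to 4. Every 4E-T array lay above every IgG and input array. Of 4 partners of 4EHP, limma called 0 in 4E-T over IgG (1 higher at an unadjusted p under 0.05), with Arih1 at 0.34 ± 0.13 and Gigyf1 at -0.28 ± 0.23 at the ends. Against input, Arih1 and Gigyf2 were higher in 4E-T (0.76 ± 0.12 and 0.71 ± 0.14, adjusted p = 8.35e-04 and 0.00397), and Gigyf1, Gigyf2 and Arih1 were higher in IgG (0.71 ± 0.21, 0.62 ± 0.15 and 0.42 ± 0.12, adjusted p from 0.0124 to 0.0361). These genes were named after their values were seen, and with group alone only Arih1 in 4E-T over input kept its call (0.0409). The shares of all genes called up and down were 10.4% and 8.86% in 4E-T over input, 6.14% and 10.5% in IgG over input. With 4E-T, calls against input were 8 up and 3 down for the P-body list, 1 up and 2 down for the cap complex. The RNA-binding repressors and nuclear transport carriers, taken up below, had 4 and 0, and 3 and 0. With IgG these lists, in the same order, had 4 and 6, 3 and 1, 3 and 0, and 0 and 0. Each 0 stayed 0 at an unadjusted limma p under 0.05.

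Of 11 measured RNA-binding repressors 2 were higher and 1 was lower with 4E-T than with IgG (median 0.15). Cpeb4 and Cpeb2, which encode cytoplasmic polyadenylation element binding proteins, were higher by 1.07 ± 0.26 and 0.83 ± 0.22 (adjusted p = 0.0213 and 0.0332). Pum2, a Pumilio repressor gene, was lower, with a difference of -0.95 ± 0.15 (0.00244) and with 9.14, 9.42 and 9.47 on 4E-T 1 to 3 against 10.56, 10.45 and 10.23 on IgG 2 to 4. Its inputs had 8.77, 9.28, 9.25 and 9.04, so that the IgG arrays stood apart: 4E-T over input was 0.29 ± 0.13 (adjusted p = 0.172) and IgG over input 1.24 ± 0.14 (1.48e-04). Of 7 nuclear transport carriers, Kpna2, an importin alpha gene, was higher by 1.09 ± 0.18 (0.00313) and 0 were lower (4 higher and 0 lower at an unadjusted limma p under 0.05; median 0.38). With group alone Eif4g3, Eif4h, Dcp1a, Edc3, Cpeb2, Cpeb4 and Kpna2 lost their calls (adjusted p from 0.106 to 0.650). The differences were then -0.57 for Eif4g3, 0.88 for Dcp1a and 0.83 for Kpna2, and smaller by over 1.5 times for Edc3, Eif4h, Cpeb2 and Cpeb4, at 0.46, 0.36, 0.45 and 0.62. Eif4g3, Eif4h, Cpeb2 and Cpeb4 also lost theirs with quantile normalization (0.124 to 0.224), and Eif4g3 and Pum2 with array centring (0.793 and 0.0648).

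Some of these calls also depended on 1 array. Eif4h was lost without 4E-T 2, 4E-T 3 or IgG 3 (adjusted p from 0.0506 to 0.0987), Eif4g3 without 4E-T 2, 4E-T 3 or IgG 4 (0.0553 to 0.112) and Edc3 without 4E-T 3 (0.0757). Cpeb4 was lost without 4E-T 2, 4E-T 3 or IgG 3 (0.0567 to 0.111), and Cpeb2 without 4E-T 2, 4E-T 3, IgG 2, IgG 3 or IgG 4 (0.0545 to 0.215).

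**Figure D5:**
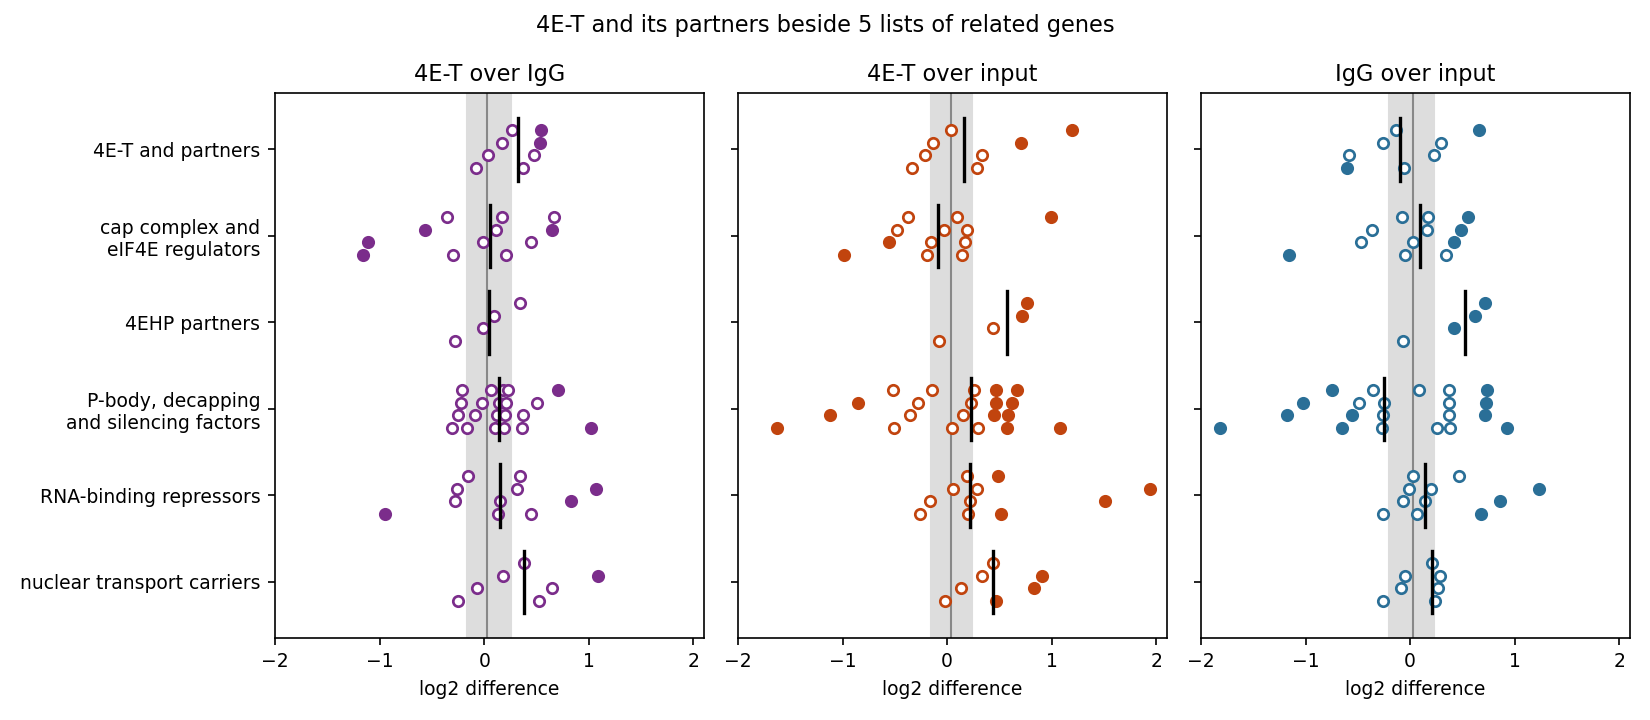
Log2 differences of the 8 genes and of 5 lists of related genes in the 3 comparisons, 1 point per gene, filled at an adjusted p under 0.05; black bars are list medians, and the grey line and band are the median and interquartile range of all 22180 genes. In 4E-T over IgG the 8 genes have a median of 0.32, against 0.03 for all genes and 0.14 in a fit of the brighter genes alone.

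Over the 8 arrays on the common scale, the levels of Eif4enif1 were followed most closely by those of Lin54, Lmln, Smarcad1, Ambra1 and Lpin2, with Pearson correlations of 0.980 to 0.984 among 18285 named protein-coding genes. As background, Lin54 and Smarcad1 encode chromatin proteins, Ambra1 an autophagy regulator and Lpin2 a lipid phosphatase. These 5 genes differed by 0.53 to 0.71 in 4E-T over IgG and by 0.71 to 1.05 in 4E-T over input. Among the other 7 of the 8 genes the correlation with Eif4enif1 was 0.90 for Ddx6, 0.85 for Patl1, 0.67 for Lsm14a and below 0 for Eif4e, Eif4e2, Eif4e3 and Lsm14b. Ddx6, Patl1 and Lsm14a ranked 432, 852 and 2627 among the 18285 genes, so many other genes followed Eif4enif1 more closely. The points share the group structure of the arrays, and the correlations are a description.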

How the data were processed

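RNA of 3 4E-T precipitates, 3 IgG precipitates and 4 inputs was hybridised to 10 arrays. Per the submitters' processing notes, the authors made the deposited log2 values in Affymetrix Expression Console by RMA. Per the labels' protocols, precipitation used the Magna RIP kit and cDNA was amplified with a NuGEN Pico protocol. Versions and the genome build are not given in the sources used here. Of 41345 probe sets, 23521 had 1 gene symbol, 1814 had several and 16010 had no annotation entry. Where a gene had several single-symbol probe sets (1082 genes) its highest mean decided, giving 22180 genes. Dim genes were kept. Precision is limited by the number of arrays.

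The test was limma 3.58.1 under R 4.3.3 (lmFit, eBayes), in 1 fit of all arrays with terms for group and for the arrays whose median lay more than 0.5 below the median of the array medians. Calls are at a Benjamini-Hochberg adjusted p under 0.05 over all genes, and the script was tested on simulated data. The 8 genes, the lists, the rule for naming genes and this term were chosen with earlier results of these data known. Named were the 8 genes, up to 3 called genes at each end of a list in 4E-T over IgG (its ends where none was called), and the 5 protein-coding genes most correlated with Eif4enif1. Figures were drawn with matplotlib 3.10.9.

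Deviations from the group means of same-numbered 4E-T and input arrays correlated at 0.62, 0.24 and 0.28, which meets a criterion of over 0.1 in every pair. The first pair is the lower-scale arrays, and among the other 8 arrays the values were 0.04 and 0.01. For IgG and input they were -0.02, 0.08 and 0.32 over all arrays, and the criterion was not met. Among the other 8 arrays they were 0.14, 0.09 and 0.25, which again missed it. IgG and input arrays with different numbers gave -0.20 to 0.08 there. A fit with the number as a block is given beside a result where it changed a call.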

Additional observations from a re-analysis of the deposited data

Results flagged for a closer look

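Among the 4 inputs, Patl1 had 8.28 on input 1, far from 8.93 to 8.98 on the other 3, and its gap to the nearest was 0.930 of the range of the group. The inputs were looked at for each of the 8 genes. Chance sets a sample apart in this way in about 1 of 20 groups where all arrays share a scale. That rate does not apply here, because input 1 is a lower-scale array. Its median over all probe sets was 3.54, against 4.39 to 4.43 on the other inputs. Each of the 8 genes, not Patl1 alone, was at its lowest among the inputs on input 1. Each was also at its lowest among the 4E-T arrays on 4E-T 1, the other lower-scale array, with Patl1 at 8.50.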

How the results depend on the processing

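For the 8 genes in the 3 comparisons, 189 of 216 refits with another setting and 220 of 240 fits without 1 array kept direction and side of the threshold. These counts overstate stability. Each of the 8 has 1 probe set, so averaging probe sets could not change its difference, and the fit of the 8 common-scale arrays enters both counts. Most of the 24 results were not called as reported and counted as kept when they stayed uncalled with the same sign. With group alone the number of the 8 called was 0 in 4E-T over IgG, 1 in 4E-T over input and 0 in IgG over input (limma, 0, 2 and 1 at an unadjusted p under 0.05), and 299, 1361 and 1206 genes were called in all, against 2326, 4274 and 3688 as reported. All 299 were among the 2326. The spread that group alone leaves holds the shift of the lower-scale arrays. With the replicate block 1 of the 8 was called in 4E-T over IgG, and the block changed no other call than those of Lsm14a and Eif4e3. Quantile normalization also left 1, and array centring gave 3, with 3054 genes called in all in 4E-T over IgG. In 4E-T over input centring called 2474 genes.

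Without 1 array, 0 to 3 of the 8 and 930 to 2268 genes were called in 4E-T over IgG, and 2703 to 4679 genes in 4E-T over input. The count of 930 came without 4E-T 2, and it was 935 without 4E-T 3. Leaving out input 1 or 4E-T 1 gives the fit of the other 8 arrays, since the term then takes up the array that remains.

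Directions that turned belonged to differences that were not called. For Patl1 in 4E-T over IgG the difference was -0.21 with group alone and -0.10 with quantile normalization, and -0.021 to 0.10 without 1 array. For Eif4e it was 0.21 with centring, and -0.18 to 0.011 without 1 array. In 4E-T over input Lsm14b was at -0.00044 with group alone, -0.030 in the 8 arrays, and -0.054 to 0.13 without 1 array. In IgG over input Eif4e was at 0.054 with group alone, 0.066 with quantile normalization, 1.04e-04 with array weights, and -0.15 to 0.042 without 1 array, and Eif4enif1 was at -0.022 with centring. The cause was not tested.

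Settings that rescale the arrays move all genes. The median of all genes, in the order of comparisons above, was -0.19, -0.02 and 0.20 with group alone, 0.25, 0.11 and -0.11 with centring, and 0.14, 0.09 and -0.04 with quantile normalization. Differences under those settings are to be read against these shifts. The values carry no detection calls, so signal over background is unknown.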
